A study of Mus musculus with 8 samples.

Results

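The 39 genes of the mouse Hox clusters were followed in spermatogonia of mice labelled PRC1dKO or PRC1ctrl, where PRC1 is Polycomb repressive complex 1. Members were all symbols of the form Hox, a cluster letter from a to d and a number, 39 of 23343 symbols measured. RNA-seq had been made from C57BL/6 mouse testes at postnatal day 7, with 2 libraries in each of 4 groups: Thy1+ spermatogonia of PRC1dKO mice (Thy1 dKO), Thy1+ spermatogonia of PRC1ctrl mice (Thy1 control), cKit+ spermatogonia of PRC1dKO mice (cKit dKO) and cKit+ spermatogonia of PRC1ctrl mice (cKit control). Thy1 sorting enriches undifferentiated spermatogonia, and Kit is carried by spermatogonia that have begun to differentiate. The labels do not spell out which genes the dKO lacks, which Cre or promoter was used, what alleles the controls carry, or whether the libraries of a group came from separate animals. The p-values below may therefore measure technical spread only.

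Hox genes encode homeodomain transcription factors that give cells their position along the head to tail axis of the embryo. They sit in 4 clusters (A to D) of up to 13 positions, the paralog groups, and low-numbered genes at the 3′ end are switched on earlier and further forward than high-numbered genes at the 5′ end. PRC1 and its partner PRC2 keep Hox genes silent in cells that should not use them, and Hox clusters are textbook Polycomb targets; somatic cells of the trunk, such as fibroblasts, keep the Hox code of the place they came from.

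Total counts ran from 6763908 to 10976869 per library, and Hox genes took 0.0158% to 0.0261% of them. CPM (counts scaled to library size, with TMM factors) are given for comparisons of a gene between libraries, and the deposited RPKM (reads scaled to transcript length and library size) for comparisons between genes. Germ cell RNA was detected, which does not give its share: none of the 20 core germ cell markers was at 0 counts in all 8 libraries, and Nanos3 and Pou5f1 were at 0 in some. Markers of other testis cells were present as well. None of the 16 peritubular and stromal, 10 Leydig or 11 endothelial markers was at 0 in any library, and Cd163 was the only such macrophage marker and Tmsb15a the only such Sertoli marker. Rnf2, which encodes the main E3 ligase of PRC1, had 126 to 141 CPM in the 4 dKO libraries and 103 to 146 CPM in the 4 control libraries. Its relative Ring1 had 2.59 to 11.99 CPM in dKO libraries and 2.70 to 5.23 CPM in control libraries, so neither transcript tells the genotypes apart. In bulk RNA, fewer cells of a type and less RNA per cell cannot be told apart.

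Hox counts came mainly from the middle and the 5′ part of clusters D and C. Over the 8 libraries the 39 genes had 12848 counts. Cluster D on chromosome 2 (mm10, 74668310 to 74765142, 9 genes) had 6905 of these, or 53.7%. Cluster C on chromosome 15 (102921131 to 103036852, 9 genes) had 4050, or 31.5%. Cluster B on chromosome 11 (96194361 to 96368253, 10 genes) had 1056 and cluster A on chromosome 6 (52155367 to 52260880, 11 genes) had 837 counts. Clusters A and B, with 21 of the 39 members, thus gave a small share of the Hox counts, which are not scaled to transcript length. All genes of cluster A are on the minus strand, and all genes of the other clusters are on the plus strand.

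By paralog position, groups 1 to 3 had 953 counts (7.42%), groups 4 to 8 had 6772 (52.7%) and groups 9 to 13 had 5123 (39.9%). Group 8 (3288 counts) and group 9 (3061 counts) were the peak of the profile, and counts were low at both ends, with 162 in group 1, 10 in group 12 and 204 in group 13. Hoxd9 and Hoxd8 together gave 40.6% of all Hox counts.

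**Figure D1:**
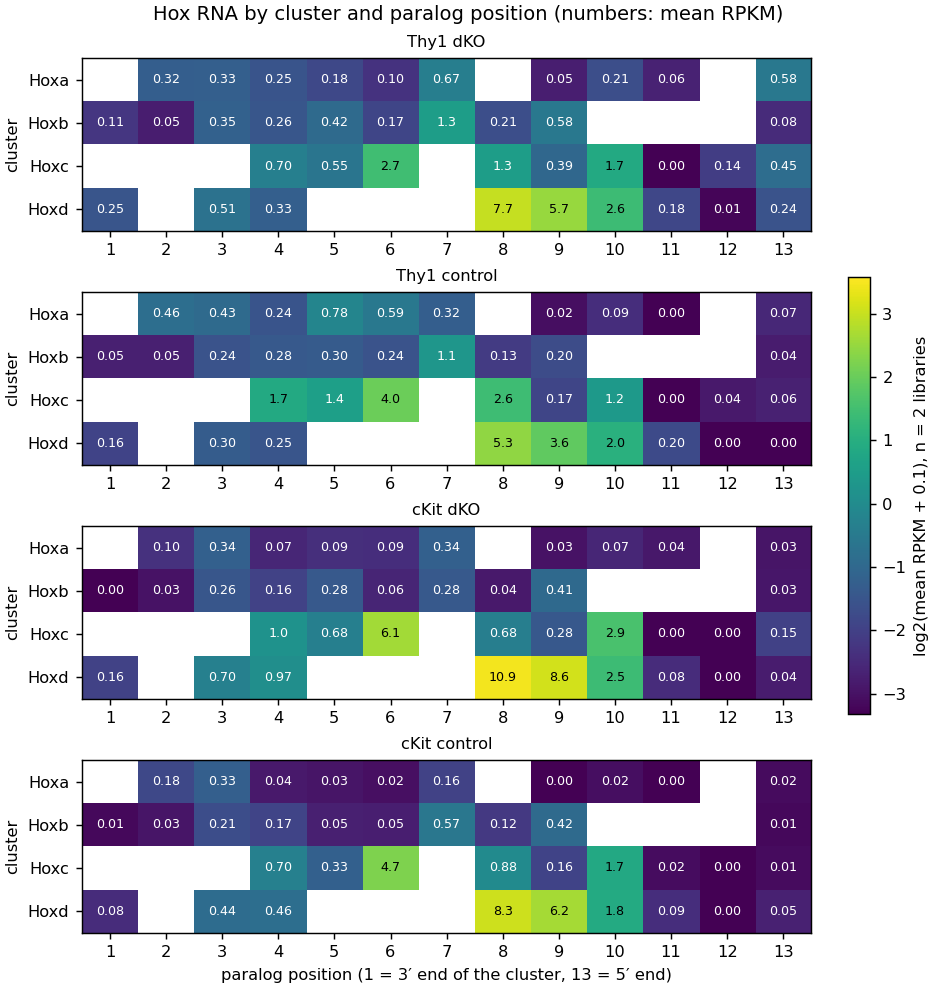
Mean RPKM of each Hox gene (number and colour, log2 of RPKM + 0.1, n = 2 libraries) by cluster (rows) and paralog position (columns) in the 4 groups; blank cells hold no gene or a value not shown. The highest values sit at Hoxd8, Hoxd9 and Hoxc6 in all 4 groups, and most of clusters A and B is under 1 RPKM.

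Per length, Hoxd8 was the highest member, at 8.05 ± 2.26 RPKM (SD, 8 libraries), above 89.3% of all symbols. Hoxd9 followed at 6.03 ± 1.94, Hoxc6 at 4.37 ± 1.71, Hoxd10 at 2.22 ± 0.50 and Hoxc10 at 1.89 ± 0.73 RPKM. Hoxd8 was above Hoxd9 in each of the 8 libraries. The means of neighbours in this order differed by less than the larger of their SDs, except those of Hoxc6 and Hoxd10. Hoxd8 to Hoxd10 are known for patterning the limbs and the lower spine, Hoxc6 for the thorax and Hoxc10 for lumbar motor neurons. The mean of Hoxc8 was 1.37, that of Hoxc4 was 1.04, and the remaining 32 members were under 1 RPKM.

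The low end of the family held 10 members that the filter on low counts removed before the test: Hoxa6 (29 counts over the 8 libraries), Hoxa9 (12), Hoxa11 (10), Hoxb1 (21), Hoxb2 (14), Hoxb6 (40), Hoxb13 (12), Hoxc11 (1), Hoxc12 (9) and Hoxd12 (1). The other 29 were tested, among 14907 genes in all, with edgeR's quasi-likelihood test and Benjamini-Hochberg adjustment; "called" below means an adjusted p under 0.05. Some entries overlap: the Hoxa3 entry spans Hoxa4, Hoxa5 and Hoxa6 on the same strand, and the Hoxd3 entry spans Hoxd4 and Mir10b, so reads of these genes may be split or shared. Hoxa10, Hoxb3 and Hoxd11 have several transcript entries, whose counts were summed and may hold some reads more than once.

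The sequences just upstream of many of these genes are rich in CG dinucleotides, the feature of promoters that Polycomb complexes are known to bind. RefSeq promoters (GRCm38.p6) were found for 22 of the 39 symbols, 24 promoters in all. Most were of clusters A and D, and Hoxc4 was the only gene of cluster C among them. The 250 bases before their starts held a median of 12.5 CG (2 to 35), against 6 over all 32851 promoters. Of all promoters, 31.5% reached the Hox median. The ratio of observed to expected CG was 0.721 against 0.373. The following 4 are shown because the results below turn on these genes and because they run from the CG-richest Hox promoter (Hoxa13) to one with fewer CG than the Hox median (Hoxc4); each line is the 250 bases before the start, 5′ to 3′ on the strand of the gene, with CG in capitals. The windows are chr6:52260881-52261130 (minus strand, 35 CG), chr2:74667975-74668224 (plus, 31 CG), chr2:74697513-74697762 (plus, 13 CG) and chr15:103034145-103034394 (plus, 8 CG).
Hoxa13: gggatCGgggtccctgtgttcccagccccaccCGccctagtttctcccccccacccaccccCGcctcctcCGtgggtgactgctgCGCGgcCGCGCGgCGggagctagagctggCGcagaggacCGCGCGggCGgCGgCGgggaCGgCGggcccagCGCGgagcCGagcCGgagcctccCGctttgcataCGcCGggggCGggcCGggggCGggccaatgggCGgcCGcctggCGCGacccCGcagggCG
Hoxd13: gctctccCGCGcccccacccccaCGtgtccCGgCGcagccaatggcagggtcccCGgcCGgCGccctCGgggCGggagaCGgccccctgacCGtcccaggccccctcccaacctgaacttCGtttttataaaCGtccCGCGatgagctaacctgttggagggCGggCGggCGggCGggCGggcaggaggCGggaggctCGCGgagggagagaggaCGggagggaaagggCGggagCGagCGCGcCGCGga
Hoxd9: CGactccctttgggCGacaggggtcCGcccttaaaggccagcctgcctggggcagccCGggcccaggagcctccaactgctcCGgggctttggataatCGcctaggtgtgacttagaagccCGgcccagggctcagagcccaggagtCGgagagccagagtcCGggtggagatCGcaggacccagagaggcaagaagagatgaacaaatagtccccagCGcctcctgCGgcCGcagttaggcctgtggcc
Hoxc4: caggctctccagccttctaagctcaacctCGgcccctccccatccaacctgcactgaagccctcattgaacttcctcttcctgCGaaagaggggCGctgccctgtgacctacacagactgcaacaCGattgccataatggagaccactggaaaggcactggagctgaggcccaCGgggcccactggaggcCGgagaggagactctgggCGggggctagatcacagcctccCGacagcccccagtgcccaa

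The RefSeq start used for Hoxd13 lies upstream of the start in the deposited tables; the others are the same. Known motifs were searched on both strands of the same window. TGATTNAT, the composite site of a Hox protein and a TALE homeodomain partner, was in 2 of the 24 Hox promoters (8.33%, against 2.82% of all promoters). TTTATG, bound by Cdx proteins and by 5′ Hox proteins, was in 5 (20.8% against 10.8%), and the TATA box TATAAA was in 4 (16.7% against 12.4%). Of the promoters printed here, that of Hoxd13 holds TATAAA.

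In Thy1+ spermatogonia, RNA of 3 of the 4 genes at position 13 was higher in both dKO libraries than in both control libraries, where it was at 6 counts or fewer. Hoxd13, which patterns digits and the external genitalia, had 21 and 14 counts in Thy1 dKO and 0 and 0 in Thy1 control. Taking 3 counts for the control group as a floor, it was at least 11.6-fold higher. Hoxa13, its partner in the same structures and in the hindgut, had 20 and 23 counts in Thy1 dKO and 3 and 2 in Thy1 control. Hoxc13, needed for hair and nails, had 36 and 28 counts in Thy1 dKO and 2 and 6 in Thy1 control. The groups did not overlap for any of these 3 genes, yet none was called. The other genes near the 5′ end did not all separate the groups: Hoxb13 had 3 and 3 counts in Thy1 dKO and 3 and 0 in Thy1 control. Hoxd11 had 3.49 and 0.54 CPM in Thy1 dKO, against 1.84 and 2.58 CPM in Thy1 control. Hoxd12 had 1 count in the Thy1 libraries together and Hoxc11 had 0.

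In the test over all genes, 0 of the 29 tested members were called in Thy1 dKO, where 0.624% of all genes were called (0.362% higher and 0.262% lower); DESeq2 also called 0, and gave no adjusted p for Hoxd13 and Hoxc13. At an unadjusted p under 0.05 there were, in either direction, 10 members of 29, against 13.8% of all genes. Of these 10, 4 were in cluster C, where 3 of 7 tested members had a log2 fold change above 0. The 3 with the lowest p were Hoxd9 (log2 fold change 0.65 ± 0.18 SE, edgeR adjusted p = 0.098), Hoxd13 (edgeR adjusted p = 0.11) and Hoxc13 (2.96 ± 0.85, edgeR adjusted p = 0.11). Hoxd9 had 41.1 and 43.5 CPM in Thy1 dKO, against 23.2 and 30.4 CPM in Thy1 control. The median over the 29 members was 0.53 on the log2 scale, against 0.03 over all genes tested.

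With only the 4 Thy1 libraries in the fit, which also changes the filter and the scaling, 14374 genes were tested, of which 432 were called higher and 438 lower. In that fit 5 members were called, 4 higher and 1 lower, with edgeR adjusted p = 0.032 for Hoxd9, 0.0100 for Hoxd13 and 0.015 for Hoxc13.

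The members that were higher in both Thy1 dKO libraries lay mostly at the 5′ end of the clusters. Over all 39 members, with or without a test, both Thy1 dKO libraries were above both Thy1 control libraries in 17, where 20.8% of all symbols were, and below in 1, where 16.8% of all symbols were. Among paralog groups 9 to 13 it was 12 of 16, among groups 4 to 8 it was 3 of 15, and among groups 1 to 3 it was 2 of 8. The 12 were Hoxa9, Hoxa10, Hoxa11, Hoxa13, Hoxb9, Hoxc9, Hoxc10, Hoxc12, Hoxc13, Hoxd9, Hoxd10 and Hoxd13. Of these, Hoxa9, Hoxa11 and Hoxc12 rest on 7 counts each in Thy1 dKO. Hoxa9 had 5 and 2 counts in Thy1 dKO and 2 and 0 in Thy1 control. Hoxc12 had 5 and 2 counts in Thy1 dKO and 0 and 2 in Thy1 control. Hoxa9 and Hoxc12 thus separate only after scaling to library size. The shares of all symbols given here and below include symbols without counts, which cannot separate. Of 23343 symbols, 19719 had at least 1 count, as each Hox member had. No test of the difference between paralog groups was made.

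Summed over paralog groups 9 to 13, Hox RNA was 93.1 ± 1.13 CPM in Thy1 dKO and 55.1 ± 11.97 CPM in Thy1 control (SD, n = 2 each), a ratio of 1.69. Groups 4 to 8 had 100.2 ± 6.72 CPM in Thy1 dKO and 118 ± 42.3 CPM in Thy1 control and overlapped between the groups, as did groups 1 to 3 and all members together, with 212 ± 3.19 CPM in Thy1 dKO and 189 ± 35.5 CPM in Thy1 control. By cluster, D (113 ± 2.59 CPM in Thy1 dKO and 74.8 ± 15.3 CPM in Thy1 control) and B (25.1 ± 0.65 and 17.3 ± 0.28 CPM) were higher in both dKO libraries, and A and C overlapped.

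**Figure D2:**
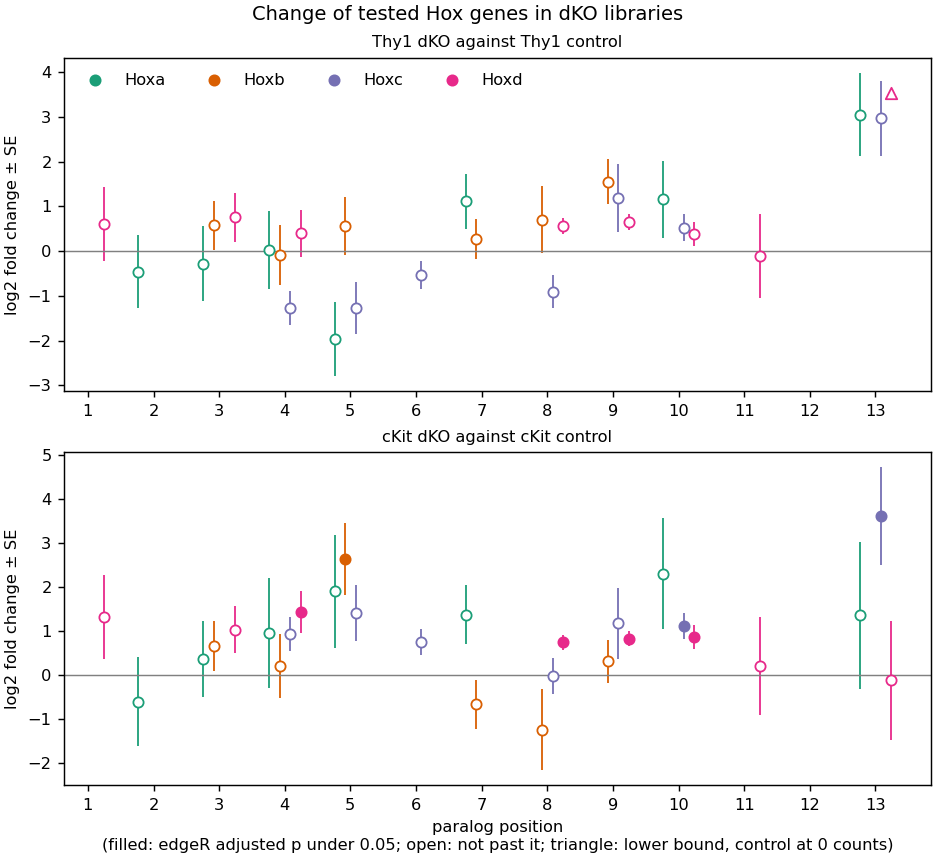
Log2 fold change with its standard error of tested Hox genes by paralog position, Thy1 dKO against Thy1 control (top) and cKit dKO against cKit control (bottom), coloured by cluster, with filled points for called genes and a triangle at the lower bound of 11.6-fold for Hoxd13. In Thy1 the genes at position 13 lie farthest above 0 and no point is filled; in cKit the 7 filled points lie at positions 4 to 13.

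Further members at the 5′ end were also above both controls. Hoxb9 (rib cage patterning) had 5.62 and 5.44 CPM in Thy1 dKO, against 2.36 and 1.41 CPM in Thy1 control. Hoxa10, which patterns the reproductive tract, had 1.57 and 1.77 CPM in Thy1 dKO, against 0.53 and 0.94 CPM in Thy1 control. Hoxa11, which acts beside it in the uterus and the forelimb, had 5 and 2 counts in Thy1 dKO and 0 and 0 in Thy1 control, at least 2.32-fold higher by the same floor. These members were low in every library, and none was called.

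Genes beside the clusters did not share a direction in Thy1 dKO. Of 20 measured genes next to or inside the clusters, 3 were above both controls and 3 below. Of all symbols, 20.8% were above and 16.8% below. Evx1 was among the 3 above. Evx1, a homeobox gene at the 5′ end of cluster A next to Hoxa13, had 5 and 5 counts in Thy1 dKO and 0 and 0 in Thy1 control, at least 3.31-fold higher by that floor, and 0 in all 4 cKit libraries. An unnamed transcript that overlaps it, 5730457N03Rik, had 10 counts in the Thy1 dKO libraries together and 0 in the controls, and the strand of the counting is not given in the sources used here. Evx2, beside Hoxd13, had 1 count in all 8 libraries.

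In the 3′ part of cluster C the values of Hoxc4, Hoxc5, Hoxc6 and Hoxc8 went the other way, by most against 1 of the control libraries. Hoxc4, expressed in the neck and forelimb region of the embryo, had 4.39 and 5.44 CPM in Thy1 dKO, against 14.4 and 9.26 CPM in Thy1 control, and was the only member below both controls. Hoxc5 had 5.85 and 4.76 CPM in Thy1 dKO, against 21.9 and 3.99 CPM in Thy1 control. Hoxc6 had 16.8 and 13.5 CPM in Thy1 dKO, against 29.3 and 14.5 CPM in Thy1 control. Hoxc8, known in brachial motor neurons, had 12.6 and 9.79 CPM in Thy1 dKO, against 30.7 and 11.5 CPM in Thy1 control. Replicate 1 of Thy1 control was thus high for these genes, as for Hoxa5, which acts in the lung (8.14 CPM against 1.76 CPM in replicate 2). The same library had a summed level of 14537 CPM of the 16 stromal markers, against 10903 CPM in replicate 2. The gap differed between these markers. Acta2 had 694 CPM against 270 in replicate 2, and Cnn1 had 24.4 against 5.75. Pdgfra had 925 against 935, and Tcf21 had 69.1 in both. The part of stromal RNA in the Hox values was not tested.

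**Figure D3:**
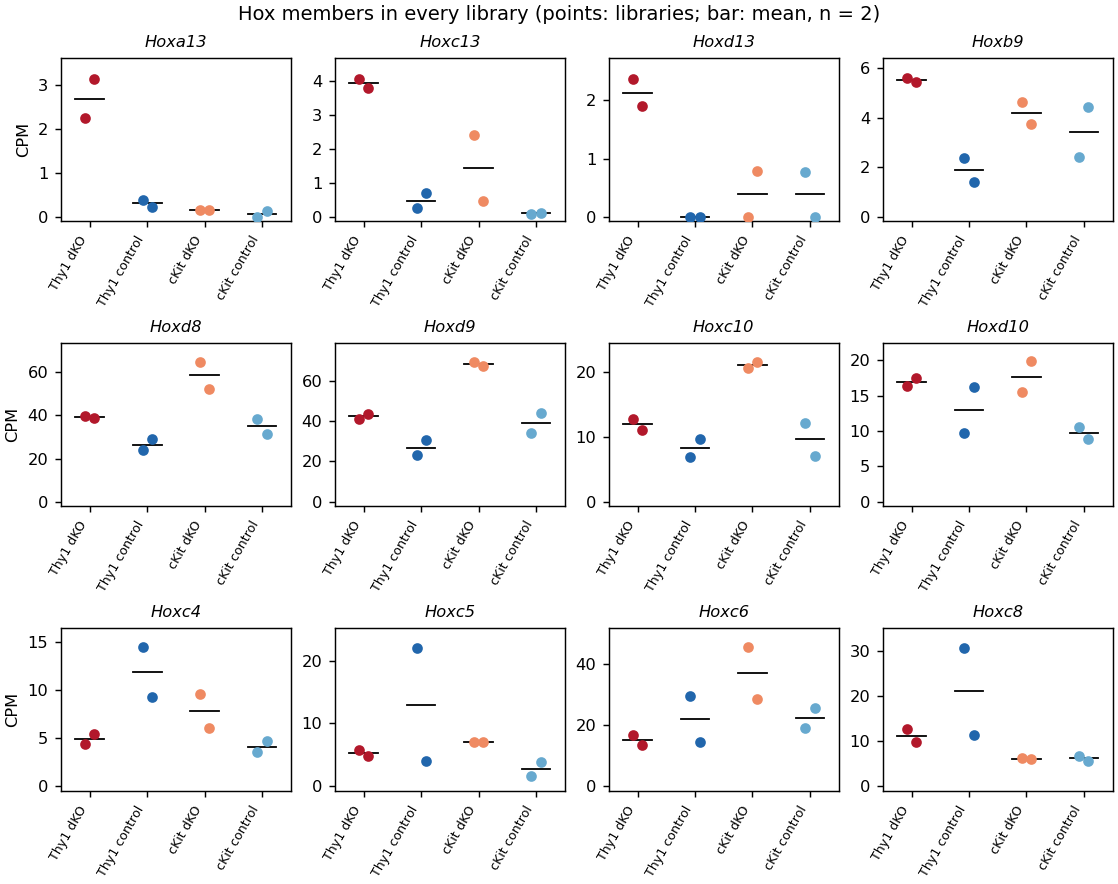
CPM of 12 Hox genes in every library (points) with the mean of each group (bar, n = 2), dKO left of control for Thy1 and then cKit. Hoxa13, Hoxc13 and Hoxd13 are near 0 in Thy1 control and at 1.90 to 4.05 CPM in Thy1 dKO, and Hoxd8 and Hoxd9 are highest in cKit dKO.

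Markers of other cells also moved in Thy1 dKO. Their summed level was 1.499 times that of Thy1 control for endothelial markers (1 of 11 called, higher), 1.37 times for Leydig (2 of 10 higher), 1.36 times for macrophage (0 of 12), 1.35 times for Sertoli (1 of 14 tested, higher) and 0.984 times for stromal markers (0 of 16). Of the 16 stromal markers, 5 were above both controls and 3 below, beside 20.8% and 16.8% of all symbols. Endothelial markers summed to 490 ± 14.3 CPM in Thy1 dKO and 327 ± 0.32 CPM in Thy1 control. Core germ cell markers, at 2459 ± 225 CPM in Thy1 dKO and 3172 ± 206 CPM in Thy1 control, were at 0.775 times, with 3 of 20 lower. The part of these in the Hox values was not tested.

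In cKit+ spermatogonia, Hox RNA was higher in the dKO libraries as a whole, 268 ± 18.8 CPM summed in cKit dKO and 155 ± 5.65 CPM in cKit control (SD, n = 2 each), a ratio of 1.74. Of the 29 tested members 7 rose and 0 fell; 28.6% of all genes were called in this comparison, 13.2% higher and 15.4% lower. The median change of the members was 0.86 on the log2 scale, against 0.03 over all genes. The 7 were 4 genes of cluster D, 2 of cluster C and 1 of cluster B.

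Hoxd9 had 69.2 and 67.4 CPM in cKit dKO, against 33.8 and 43.8 CPM in cKit control, and rose by 0.82 ± 0.17 (SE; edgeR adjusted p = 0.0026). Its neighbour Hoxd8 had 64.9 and 52.3 CPM in cKit dKO, against 38.5 and 31.5 CPM in cKit control, and rose by 0.74 ± 0.17 (edgeR adjusted p = 0.0055). These are the most abundant members, the groups did not overlap, and both calls held whichever single library was left out.

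The next gene of cluster D, Hoxd10, a gene of lumbar motor neurons and limbs, had 15.5 and 19.9 CPM in cKit dKO, against 10.6 and 8.92 CPM in cKit control (0.86 ± 0.28, edgeR adjusted p = 0.033). Hoxc10, its paralog in cluster C, had 20.5 and 21.5 CPM in cKit dKO, against 12.1 and 7.01 CPM in cKit control (1.11 ± 0.30, edgeR adjusted p = 0.011). Hoxd4, a gene of the hindbrain and neck that responds to retinoic acid, had 11.03 and 7.83 CPM in cKit dKO, against 2.77 and 4.33 CPM in cKit control (1.42 ± 0.48, edgeR adjusted p = 0.038), and its entry lies inside that of Hoxd3. In each of these the lower dKO library was above the higher control library. The Hoxc10 call was lost without cKit control replicate 2, that of Hoxd4 without cKit control replicate 1 or cKit dKO replicate 1, and that of Hoxd10 without 5 of the 8 libraries. Both the Hoxd4 and the Hoxd10 calls also ended with library totals alone (edgeR adjusted p = 0.054 and 0.072) and with the entry of most counts per symbol (0.065 and 0.061), and that of Hoxd10 with only the 4 cKit libraries in the fit (0.058).

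The remaining calls rest on few counts. Hoxc13 had 15 and 3 counts in cKit dKO and 1 and 1 in cKit control, a ratio of 13.8 with a 95% exact counting interval of 3.31 to 123 (edgeR adjusted p = 0.024). Hoxb5, a gene of the shoulder level that is also known in enteric neurons, had 8 and 17 counts in cKit dKO and 4 and 2 in cKit control (2.63 ± 0.81, edgeR adjusted p = 0.025). Leaving out 1 library ended the Hoxc13 call in 5 of 8 cases and the Hoxb5 call in 4 of 8.

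Close below the threshold were 3 neighbours in cluster C. Hoxc6 had 45.4 and 28.5 CPM in cKit dKO, against 18.9 and 25.5 CPM in cKit control (0.74 ± 0.30, edgeR adjusted p = 0.077). Hoxc4 had 9.59 and 6.11 CPM in cKit dKO, against 3.55 and 4.72 CPM in cKit control (0.94 ± 0.39, edgeR adjusted p = 0.084). Hoxc5 had 7.04 and 7.05 CPM in cKit dKO, against 1.64 and 3.82 CPM in cKit control (1.41 ± 0.63, edgeR adjusted p = 0.11). None of the 3 overlapped between the groups.

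Over all 39 members both cKit dKO libraries were above both cKit control libraries in 17, where 21.3% of all symbols were, and below in 3, among them Hoxb7 and Hoxb8, where 22.0% of all symbols were. The higher ones were spread along the clusters, with 6 of 16 in paralog groups 9 to 13, 9 of 15 in groups 4 to 8 and 2 of 8 in groups 1 to 3. Some of these rest on few counts and separate only after scaling to library size. Hoxb6 had 2 and 2 counts in cKit dKO and 3 and 1 in cKit control. In the same order, Hoxa13 had 1 and 1 counts against 0 and 1, and Hoxa5 had 2 and 6 against 1 and 2. Cluster D summed to 164 ± 10.4 CPM in cKit dKO and 92.6 ± 2.98 CPM in cKit control, and cluster C to 82.2 ± 16.7 CPM in cKit dKO and 45.8 ± 2.997 CPM in cKit control. Clusters A (8.99 ± 4.57 and 5.79 ± 0.62 CPM) and B (13.1 ± 3.84 and 10.5 ± 0.29 CPM) overlapped between the groups.

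The 13-paralogs of clusters A and D, which had counts in Thy1 dKO, stayed near 0 in cKit+ cells. Hoxa13 had 1 and 1 counts in cKit dKO and 0 and 1 in cKit control. Hoxd13 had 0 and 5 counts in cKit dKO and 9 and 0 in cKit control, so that a single library held the counts of each group. Hoxb13, the prostate and tail paralog, had 12 counts over all 8 libraries.

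Markers of several somatic cell types were higher in the same libraries. The summed level of endothelial markers was 1.99 times that of cKit control (4 of 11 called, all higher), that of stromal markers 1.79 times (11 of 16 higher), that of mast cell markers 1.66 times (2 of 8 tested, higher), that of Sertoli markers 1.47 times (5 of 14 tested, higher) and that of Leydig markers 1.38 times (7 of 10 higher and 1 lower). Macrophage markers, at 1.15 times, overlapped between the groups, with 0 of 12 called. Stromal markers summed to 5952 ± 900 CPM in cKit dKO and 3321 ± 53.6 CPM in cKit control, beside ratios of 1.77 and 1.79 for Hox clusters D and C. Leydig markers summed to 16785 ± 1831 CPM in cKit dKO and 12186 ± 1569 CPM in cKit control. Core germ cell markers summed to 711 ± 145 CPM in cKit dKO and 2241 ± 362 CPM in cKit control, with 16 of 20 lower. The part of other cell types in the Hox values was not tested.

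**Figure D4:**
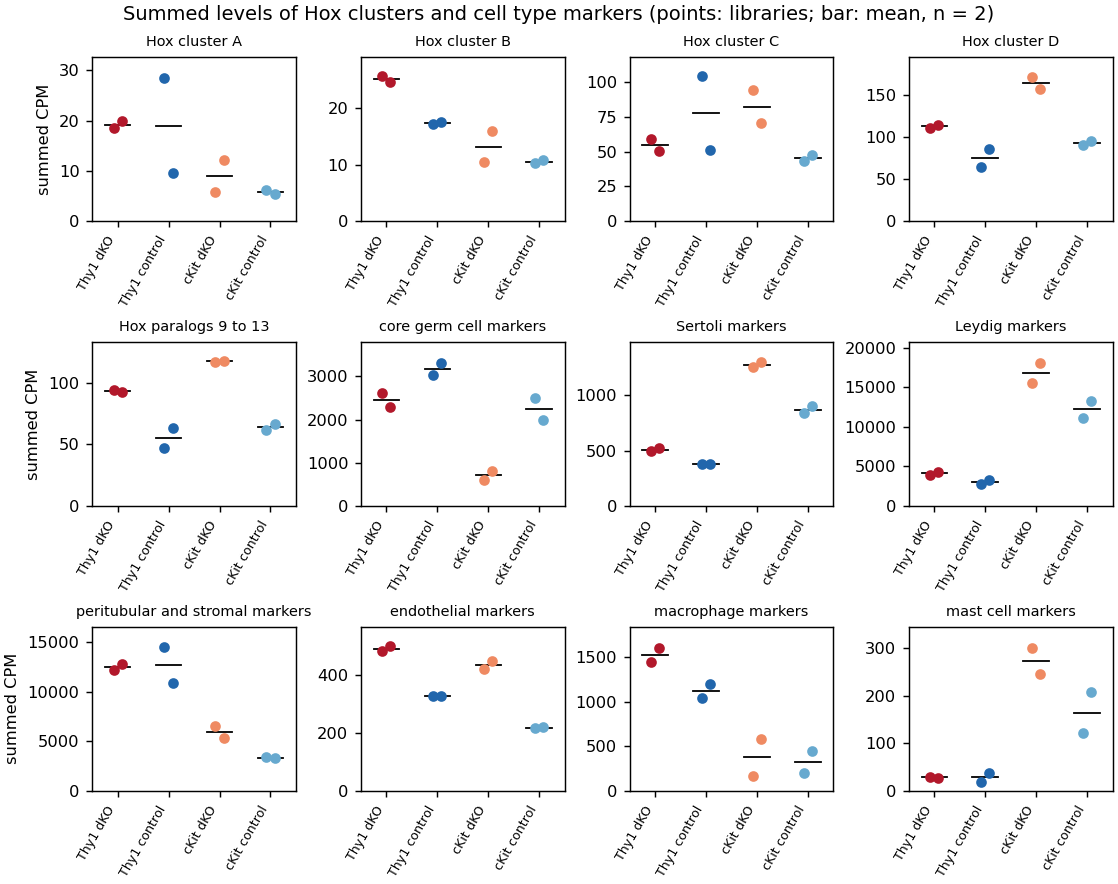
Summed CPM of the Hox clusters, of paralog groups 9 to 13 and of 7 cell type marker lists in every library (points; bar, mean of n = 2). Clusters C and D, stromal, endothelial, Sertoli, Leydig and mast cell markers are all higher in cKit dKO than in cKit control, where core germ cell markers are lower.

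Scaling changes the size of these differences. When library sizes were set by the core germ cell markers, the median of all genes moved to 1.70 on the log2 scale in cKit dKO, 21 of the 29 members and 12390 of all 14907 genes were called higher, and the median of the members was 2.52. With limma on log2(RPKM + 0.1), for which 14 members passed the filter, 0 were called, and the median of all genes was -0.30 and that of the members 0.48. The members' median was above that of all genes under each of these settings.

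Whether the dKO effect differs between the populations was tested directly. In this difference (cKit effect minus Thy1 effect) 5.92% of all genes were called, 1.86% higher and 4.06% lower, and 1 of the 29 members was. Hoxc4 differed by a log2 value of 2.21 ± 0.54 (edgeR adjusted p = 0.026), from a dKO effect of 0.94 in cKit and -1.27 in Thy1. Hoxc5 (2.68 ± 0.86, edgeR adjusted p = 0.083) and Hoxc6 (1.27 ± 0.43, edgeR adjusted p = 0.10) were next, followed by Hoxd13 (edgeR adjusted p = 0.12), for which no fold is given because a group is at 0. The Hoxc4 call was lost without Thy1 control replicate 1, the library in which these genes were high, and also without Thy1 dKO replicate 1 or 2 or cKit control replicate 1. For Hoxa13 (edgeR adjusted p = 0.78) and Hoxc13 (edgeR adjusted p = 0.84) the effects in Thy1 and cKit were not shown to differ.

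Between the control populations, 5 Hox genes at positions 4 to 8 were lower in cKit+ than in Thy1+ spermatogonia. They were the only ones called among the 29 members, with 0 higher; 19.7% of all genes were called, 9.46% higher and 10.3% lower. Hoxc8 had 6.75 and 5.61 CPM in cKit control, against 30.7 and 11.5 CPM in Thy1 control (-1.76 ± 0.38, edgeR adjusted p = 0.0041). Hoxa5 had 1 and 2 counts in cKit control and 62 and 15 in Thy1 control, a ratio of 0.0324 (95% exact counting interval 0.00654 to 0.0983; edgeR adjusted p = 0.0042). Hoxc4 (-1.53 ± 0.38, edgeR adjusted p = 0.0093), Hoxc5 (-2.28 ± 0.61, edgeR adjusted p = 0.016) and Hoxb5 (-2.60 ± 0.80, edgeR adjusted p = 0.032) were the others.

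Each of these calls was lost without Thy1 control replicate 1, and all but that of Hoxc8 without cKit control replicate 1. Such a fit has 1 library in that group, so a lost call does not show that it rested on that library. With any 1 library left out, the log2 fold change was -2.30 to -0.89 for Hoxc8 and -5.61 to -3.34 for Hoxa5. It was -1.81 to -1.17 for Hoxc4, -3.04 to -0.58 for Hoxc5 and -2.89 to -2.26 for Hoxb5. The 3 uncalled members of lowest p were Hoxd9 (0.53 ± 0.18, edgeR adjusted p = 0.0504), Hoxb7 (-1.22 ± 0.48, edgeR adjusted p = 0.094) and Hoxa4 (-2.63 ± 1.05, edgeR adjusted p = 0.097). Cluster D did not follow the others: it summed to 92.6 ± 2.98 CPM in cKit control and 74.8 ± 15.3 CPM in Thy1 control, while cluster A was at 0.305 times, B at 0.608 times and C at 0.589 times the Thy1 control level. Stromal markers were at 0.261 times in cKit control, with 16 of 16 lower, and macrophage markers at 0.289 times, with 11 of 12 lower. Leydig markers were at 4.03 times, with 8 of 10 higher. Their part in the Hox values was not tested.

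Between the dKO populations, the summed level in cKit+ spermatogonia was 1.49 times that in Thy1+ for cluster C and 1.46 times for D, but 0.468 times for A and 0.523 times for B. Of the 29 members 5 rose in cKit dKO and 2 fell; 34.8% of all genes were called, 14.8% higher and 20.0% lower. Hoxc6 (1.28 ± 0.31, edgeR adjusted p = 0.0047), Hoxd9 (0.69 ± 0.17, edgeR adjusted p = 0.0061), Hoxd4 (1.65 ± 0.49, edgeR adjusted p = 0.017), Hoxd8 (0.58 ± 0.17, edgeR adjusted p = 0.018) and Hoxc10 (0.82 ± 0.29, edgeR adjusted p = 0.042) rose. Hoxb7 had 0.80 and 1.88 CPM in cKit dKO, against 6.52 and 5.57 CPM in Thy1 dKO (-2.16 ± 0.53, edgeR adjusted p = 0.0052).

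Hoxa13 was the other that fell, with 2 counts in cKit dKO and 43 in Thy1 dKO, a ratio of 0.0598 (95% exact counting interval 0.00702 to 0.230; edgeR adjusted p = 0.010). Among the uncalled members of lowest p were Hoxb8 (-2.29 ± 0.89, edgeR adjusted p = 0.057) and Hoxc8 (-0.88 ± 0.41, edgeR adjusted p = 0.11). Stromal markers were at 0.476 times (12 of 16 lower) and Leydig markers at 4.06 times (9 of 10 higher and 1 lower) the Thy1 dKO level. Macrophage markers were at 0.245 times (10 of 12 lower), mast cell markers at 9.80 times (8 of 8 tested, higher) and core germ cell markers at 0.289 times (16 of 20 lower). The part of these in the Hox values was not tested. Without Thy1 dKO replicate 1 the members called were 3, and without replicate 2 they were 2.

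Some genes that work with Hox proteins were called in cKit dKO, where 13.2% of all genes were called higher and 15.4% lower. Of 8 tested genes of the TALE homeobox family, whose proteins bind DNA together with Hox proteins, 4 rose and 0 fell in cKit dKO and 0 were called in Thy1 dKO. Those that rose include Pknox2 (0.98 ± 0.13, edgeR adjusted p = 6.7e-05), Pbx3 (0.61 ± 0.20, edgeR adjusted p = 0.035) and Meis1 (0.65 ± 0.22, edgeR adjusted p = 0.039). Of 9 tested activators of Hox genes 1 rose in cKit dKO, the retinoic acid receptor Rara (0.43 ± 0.14), and 4 fell, the histone H3K4 methyltransferases Kmt2a (-0.32 ± 0.10) and Kmt2b (-0.43 ± 0.12) and their partners Men1 (-0.62 ± 0.17) and Ash2l (-0.60 ± 0.12). Cdx1 and Cdx2, direct activators in the embryo, had 11 and 8 counts in all 8 libraries, and Cdx4 had 0.

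Of Polycomb genes, Cbx2, the chromobox subunit that joins PRC1 to the mark of PRC2, fell to 15.2 and 24.9 CPM in cKit dKO, against 70.5 and 73.4 CPM in cKit control (-1.84 ± 0.19, edgeR adjusted p = 1.1e-05; 1 of 4 chromobox genes called). Of 8 PRC2 genes 4 fell in cKit dKO, Mtf2 (-0.98 ± 0.14), Jarid2 (-0.88 ± 0.13), Eed (-0.82 ± 0.16) and Suz12 (-0.41 ± 0.12), and in Thy1 dKO 1 fell, Mtf2 (-0.66 ± 0.13, edgeR adjusted p = 0.034). Core germ cell markers, with 16 of 20 lower in the same cKit libraries, moved with them, beside the 15.4% of all genes called lower.

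Genes next to the clusters were also measured. Of 15 tested neighbours 1 rose in cKit dKO, Calcoco1 near cluster C (0.75 ± 0.15), and 3 fell, Skap2 (-1.22 ± 0.20) and Snx10 (-0.74 ± 0.26) near cluster A and Mtx2 (-0.42 ± 0.15) near cluster D; in Thy1 dKO 0 were called. These counts stand beside 13.2% of all genes higher and 15.4% lower in cKit dKO, and no test of a difference from the Hox genes was made. Of 16 noncoding RNAs on the list for the clusters, 7 were measured and none had enough counts for a test; Hotair, transcribed within cluster C, had 1 and 3 counts in Thy1 dKO, 1 and 0 in Thy1 control and 0 in every cKit library. Other noncoding transcripts lie in the clusters, and those named here were chosen after their values were seen. Mira, in cluster A, had 4.05 and 3.13 CPM in Thy1 dKO, against 1.44 and 1.41 CPM in Thy1 control (1.33 ± 0.63, edgeR adjusted p = 0.37). 1700109F18Rik, which overlaps the Hoxd3 entry, had 0.79 and 1.63 CPM in Thy1 dKO, against 0.66 and 0.59 CPM in Thy1 control (0.93 ± 0.83, edgeR adjusted p = 0.68). Neither was called in Thy1 dKO or in cKit dKO.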

How the data were processed

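Total RNA of sorted Thy1+ and cKit+ spermatogonia had been purified, amplified to cDNA with the NuGEN Ovation v2 system and made into Nextera XT libraries for Illumina sequencing, per the labels' protocols. The aligner was STAR 2.4.2a and the genome mm10, per the submitters' processing notes; the counting tool and its strand setting are not given in the sources used here. The deposited tables give whole-number read counts with no normalization and RPKM values that the authors scaled to transcript length and library, per the file headers. Each has 26099 transcript entries, whose counts were summed per symbol (23343).

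Genes were tested with edgeR 4.0.16 in R 4.3.3 on all 8 libraries with 1 mean per group: filterByExpr (14907 genes kept), TMM, two-sided glmQLFTest on glmQLFit, with p-values adjusted by Benjamini-Hochberg and a threshold of 0.05. The standard error of a change is its size divided by the square root of the F statistic. Amplified reads without molecular identifiers are not independent molecules, so floors (3 counts over a group) and exact 95% intervals cover counting error only. DESeq2 1.42.0 and limma 3.58.1 (log2 of RPKM + 0.1, genes over 0.5 RPKM in 2 libraries) were alternatives.

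Members, lists and tests were chosen with earlier results of these data known. The text names, per comparison and apart from genes not reported here, each Hox gene called and the 3 uncalled of lowest p, the 5 members of highest mean RPKM, members removed by the filter, and called genes of the cofactor, activator, Polycomb and neighbour lists; other members named for their position or for a library that stood apart were chosen after their values were seen. Ribosomal Rn45s took 8.42% to 13.6% of a library's counts. The labels do not say whether replicate numbers pair the libraries, and the fit used no pairing.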

Additional observations from a re-analysis of the deposited data

Results flagged for a closer look

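The dKO effect on Hoxc4 differed between the populations by a log2 value of 2.21 ± 0.54 (cKit effect minus Thy1 effect; edgeR adjusted p = 0.026), by a test of the difference itself. Its dKO effect was 0.94 ± 0.39 in cKit and -1.27 ± 0.38 in Thy1, neither called on its own. The call of the difference was lost with limma on log2 RPKM and with the entry of most counts per symbol. It was also lost without Thy1 control replicate 1, Thy1 dKO replicate 1 or 2, or cKit control replicate 1. With any 1 library left out, the difference was 1.85 to 2.57. Hoxc4 had 9.59 and 6.11 CPM in cKit dKO, against 3.55 and 4.72 CPM in cKit control. In Thy1 dKO it had 4.39 and 5.44 CPM, against 14.4 and 9.26 CPM in Thy1 control. Of the stromal markers, 9 of 16 were called higher in the same difference; their part in the Hoxc4 value was not tested.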

How the results depend on the processing

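The number of Hox members called moved by over 1.5 times, or from 0, in these settings; the cause was not tested except where fewer genes or libraries entered. In Thy1 dKO against control (0 called), scaling on core germ cell genes gave 3, no filter on low counts gave 5 and a fit of only the 4 libraries compared gave 5; of all genes 93 were called, and in these settings 192 higher and 5 lower, 326 and 237, and 432 and 438. In cKit dKO against control (7), germ cell scaling gave 21, limma on log2 RPKM gave 0 (14 members tested) and only the 4 libraries gave 4 (16 tested); germ cell scaling called 12390 of all genes higher and 54 lower, and limma 342 and 3438. In cKit control against Thy1 control (5), limma gave 2. In cKit dKO against Thy1 dKO (7), germ cell scaling gave 13 (of all genes 12017 higher and 143 lower) and limma gave 3. In the difference of the dKO effects (1), germ cell scaling gave 12 (of all genes 8856 higher and 34 lower), no filter 4, DESeq2 2, limma 0 and the entry with most counts per symbol 0. Leaving out each library in turn gave 0 to 2, 3 to 9, 0 to 7, 2 to 8 and 0 to 3 members in the same order.

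Of 613 alternative values for the 35 named changes, 493 kept their direction and side of the threshold, 73 fell short of it, 46 passed it newly and 1 reversed: Hoxc8 in cKit dKO against Thy1 dKO, at 0.94 with germ cell scaling, which moved the median of all genes to 1.73. The members' median in that comparison was -0.59 and turned to 1.23 with germ cell scaling and to 0.38 with limma; in cKit control against Thy1 control it was -0.96 and turned to 0.14 with limma.

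Deviations of same-numbered libraries correlated at -0.04 to 0.05 across genes, so no pairing by replicate number was seen. With the replicate number as a block 0, 7, 6, 7 and 1 members were called. Depth limits the 10 members removed by the filter and those under about 10 counts per library.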
